A study of Mus musculus with 8 samples.

Results

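Calcium entering an active neuron binds calmodulin, and calcium-calmodulin switches on opposing enzymes: the CaM kinases, which add phosphate to synaptic and nuclear proteins, and the phosphatase calcineurin, which removes it. The 10 genes described here encode this pair of enzyme systems and were taken by name from a count table of 54532 genes. They are the CaMKII genes Camk2a, Camk2b, Camk2d and Camk2g, the nuclear kinase gene Camk4, the upstream kinase gene Camkk2, the calcineurin catalytic genes Ppp3ca and Ppp3cb, its regulatory subunit gene Ppp3r1, and Rcan2, which encodes a calcineurin-binding regulator. In forebrain excitatory neurons CaMKII is a major protein of the postsynaptic density and is needed for long-term potentiation, while calcineurin is known for long-term depression and for activating NFAT transcription factors.

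RNA of the medial prefrontal cortex of adult male C57BL/6 mice was sequenced in 4 retrieval libraries and 4 non-retrieval libraries, from a study of conditioned place preference for methamphetamine, a psychostimulant. In that procedure an animal comes to prefer a compartment in which it received the drug. Tissue was taken 1 h after the preference test, and mice were pooled, 2 to 3 per library, so the spread given here is one between pools. The labels carry no genotype and do not say how non-retrieval mice were handled, whether they received the drug, or when, so handling and exposure to the apparatus cannot be told apart from retrieval. In bulk tissue, fewer cells of a type and less RNA per cell cannot be told apart either.

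Counts per library ran from 25013503 to 29547978. Markers of excitatory neurons were present in every library, with the summed level of 7 markers at 2529 to 2817 CPM, the count per library scaled for depth, in retrieval and 2563 to 2923 CPM in non-retrieval. Myelin markers stood higher in retrieval: 6 of 10 passed the test, all higher, and their summed level was 4121 to 5980 CPM in retrieval against 3398 to 4008 CPM in non-retrieval. Markers of striatal projection neurons summed to 282 CPM in retrieval replicate 2, against 169 to 200 CPM in the other 3 retrieval libraries and 171 to 186 CPM in non-retrieval. Of 7 interneuron markers, 6 did not pass, and 3 had log2 fold changes above 0 and 4 below (median -0.0051). Pvalb fell, with groups that overlapped (34.3 ± 5.28 CPM in retrieval and 45.6 ± 6.18 CPM in non-retrieval, SD, n = 4 each, log2 fold change -0.41, edgeR adjusted p = 0.0355). Gad1 did not pass (-0.15, edgeR adjusted p = 0.193), though its groups did not overlap. The 3 above 0 were Slc32a1, Sst and Vip, each at 0.06. The part of these markers in the results below was not tested, apart from the myelin covariate. No marker of these lists was at 0 counts in all libraries.

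All 10 genes passed the filter on low counts, and the lowest raw count of any of them in a library was 1919. Counts were compared with edgeR's quasi-likelihood test, with p-values adjusted by Benjamini-Hochberg over 16745 genes, and the threshold for a call was an adjusted p of 0.05. Of the 10 genes, 1 fell, none rose and 9 did not pass, against 4.57% of all tested genes called, 0.902% lower and 3.67% higher. The gene that fell was Camk2g. The median log2 fold change of the 10 genes was -0.10, with 2 values above 0 and 8 below, against a median of -0.01 over all tested genes, of which 7997 lay above 0 and 8748 below. Retrieval libraries all lay below non-retrieval libraries for 3 of the 10 genes, Camk2g, Camkk2 and Ppp3ca, and all above for 0, against 4.53% and 6.59% of tested genes. An offset for length and GC content of each gene moved the split of all calls to 747 higher and 634 lower, against 615 higher and 151 lower without it, and 5 of the 10 genes were then called, all lower (Camk2b, Camk2g, Camkk2, Ppp3ca and Ppp3cb), against 3.79% of genes called lower.

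Because CaMKII genes are close relatives, their coding sequences were compared first. Between pairs of the 4 CaMKII genes, 76.6% to 79.8% of aligned coding bases were identical (longest coding transcript of each gene, GENCODE M21, build GRCm38), and the longest run of identical bases was 32, between Camk2a and Camk2b. Ppp3ca and Ppp3cb were 74.0% identical, with a longest run of 20. The stretch around the longest run that Camk2g shares with Camk2b is shown as the place where these paralogs are most alike, not as typical of them. It lies in exon 5 of both transcripts, at chr14:20770064-20770117 on the minus strand for Camk2g and chr11:5997883-5997936 on the minus strand for Camk2b. Capitals mark the 4 bases that differ.
Camk2g: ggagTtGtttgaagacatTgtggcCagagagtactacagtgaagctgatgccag
Camk2b: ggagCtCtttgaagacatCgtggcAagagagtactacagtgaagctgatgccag
The matching stretch of the calcineurin catalytic genes lies in exon 11 of both transcripts, at chr3:136921840-136921909 on the plus strand for Ppp3ca and chr14:20509424-20509493 on the minus strand for Ppp3cb. Here 10 bases differ, again in capitals.
Ppp3ca: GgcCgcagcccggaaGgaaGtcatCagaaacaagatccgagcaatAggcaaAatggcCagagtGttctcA
Ppp3cb: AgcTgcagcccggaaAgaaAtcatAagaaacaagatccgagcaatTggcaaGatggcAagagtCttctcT
No window of 50 bases in the transcript examined for any of the 10 genes occurred in another of the 10. For Camk2b, Camk2d, Camk2g, Camk4, Camkk2, Ppp3ca and Ppp3cb no such window occurred in a transcript of any other annotated gene. The search took 1 transcript per gene, each shorter than the deposited gene length, and the remaining bases were not searched. The lengths were 1937 against 6401 bases for Camk2g and 2859 against 3228 for Ppp3r1. For Ppp3r1, 14.7% of windows also occurred in Wdr92, which overlaps it on the same strand, and for Camk2a and Rcan2 the share was 0.313% and 0.378%. The total of Wdr92 was 0.753% of that of Ppp3r1. As both lie on the same strand, reads of Ppp3r1 in the shared part are of uncertain assignment under any strand setting. The strand setting of the counting is not given in the sources used here. It bears on genes of opposite strands, such as 1810062O18Rik, which overlaps Ppp3cb and had a total of 0.410% of that of Ppp3cb.

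Camk2g encodes the gamma subunit of CaMKII, an isozyme found widely outside the brain as well as in neurons, which has been described to carry calcium-calmodulin to the nucleus. The gene (ENSMUSG00000021820) lies at chr14:20734875-20794088 (GRCm38, as for the genes below). It stood at 304, 303, 305 and 297 CPM in retrieval replicates 1 to 4, against 362, 332, 365 and 367 CPM in non-retrieval replicates 1 to 4. The groups did not overlap, the spread within retrieval was 1.22% of the mean against 4.63% within non-retrieval, and the lowest non-retrieval library was replicate 2. The means were 302 ± 3.68 CPM in retrieval and 356 ± 16.5 CPM in non-retrieval (SD, n = 4 each), a change of -15.1%. The log2 fold change was -0.24 (SE 0.06, 95% interval -0.36 to -0.12), with an edgeR adjusted p of 0.0255.

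The call of Camk2g ended without retrieval replicate 3 or 4 or without non-retrieval replicate 1, 3 or 4 (adjusted p 0.0628 to 0.0882 by edgeR), while its log2 fold change stayed between -0.27 and -0.22 with any 1 library left out. The groups did not overlap in the summed level of the myelin markers, and with their mean log2 CPM as a covariate, which left 169 calls over all genes, Camk2g was at -0.19 (SE 0.08; edgeR adjusted p = 0.328).

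**Figure D1:**
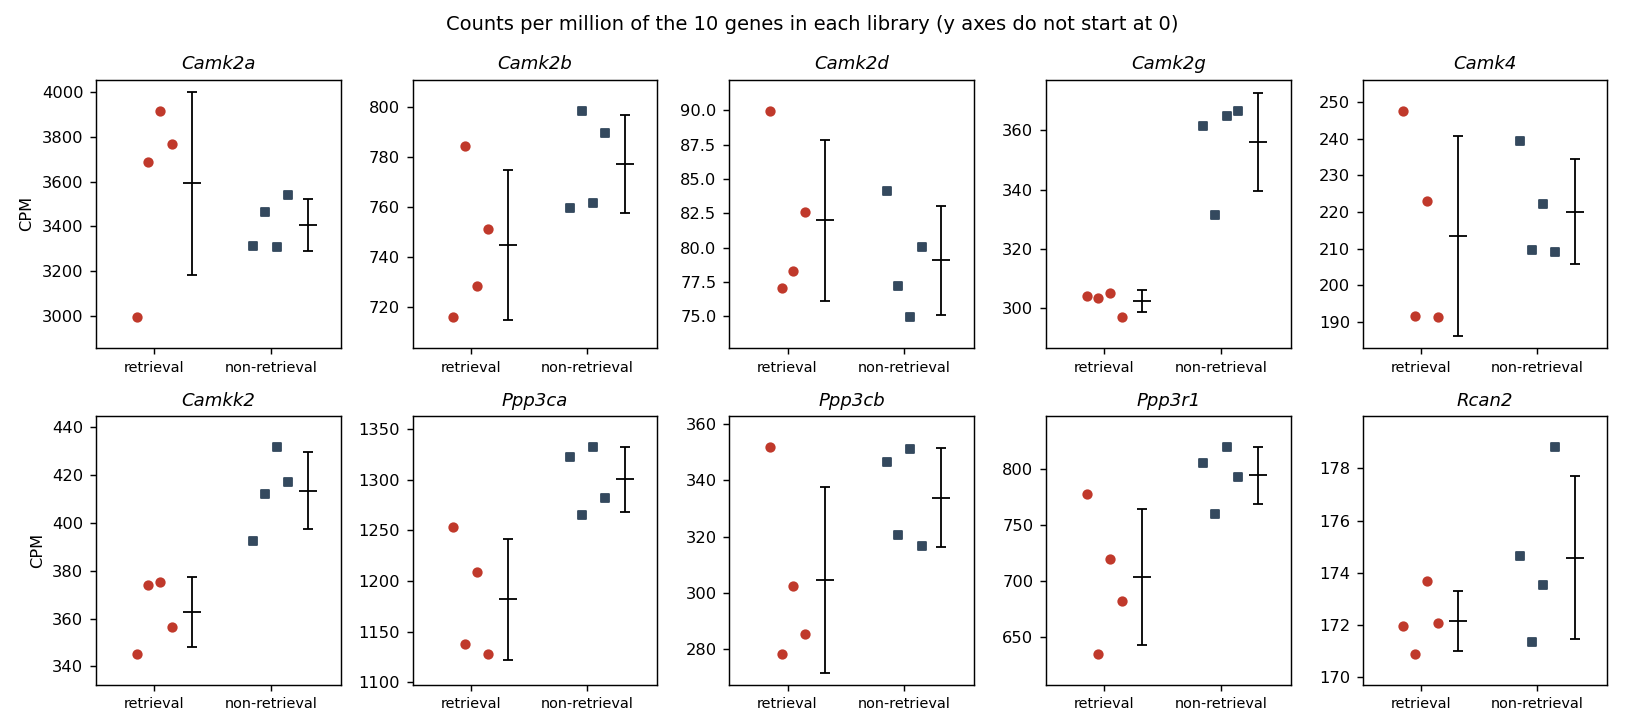
CPM of the 10 genes (y axes, which do not start at 0), with 1 point per library, retrieval left of non-retrieval, and the mean and SD of 4 libraries beside each group. The retrieval libraries lie below all non-retrieval libraries for Camk2g (297 to 305 against 332 to 367 CPM), Camkk2 and Ppp3ca, and retrieval replicate 1, the leftmost point, stands at the bottom for Camk2a and at the top for Camk2d, Camk4 and Ppp3cb.

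The other CaMKII genes did not pass. Camk2a (ENSMUSG00000024617, chr18:60925618-60988152) encodes the alpha subunit, which with the beta subunit forms most of the forebrain holoenzyme and carries the autophosphorylation linked to memory. It stood at 2995, 3687, 3917 and 3771 CPM in retrieval replicates 1 to 4, against 3313, 3463, 3310.0 and 3543 CPM in non-retrieval replicates 1 to 4. Retrieval replicate 1 was the lowest of all 8 libraries and the other 3 retrieval libraries were the highest. The log2 fold change was 0.08 (SE 0.07, 95% interval -0.08 to 0.23; edgeR adjusted p = 0.630), and 0.16 without retrieval replicate 1 (edgeR adjusted p = 0.0718). With the length and GC offset it was -0.01 (edgeR adjusted p = 0.954).

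Camk2b (ENSMUSG00000057897, chr11:5969644-6066362), whose beta subunit binds actin in dendritic spines, stood at 716, 784, 728 and 751 CPM in retrieval replicates 1 to 4, against 759, 798, 762 and 789 CPM in non-retrieval replicates 1 to 4. The groups overlapped through retrieval replicate 2, and the log2 fold change was -0.06 (SE 0.06, 95% interval -0.18 to 0.06; edgeR adjusted p = 0.602). With the length and GC offset it was -0.17 (edgeR adjusted p = 0.0138), past the threshold. Camk2d (ENSMUSG00000053819, chr3:126596302-126846326), whose delta subunit is best known from heart muscle, was the least abundant, at 89.97, 77.1, 78.3 and 82.6 CPM in retrieval replicates 1 to 4, against 84.2, 77.2, 75.0 and 80.1 CPM in non-retrieval replicates 1 to 4. Its groups overlapped over most of their range, and its log2 fold change was 0.05 (SE 0.07, 95% interval -0.09 to 0.19; edgeR adjusted p = 0.729), or -0.10 with the length and GC offset (edgeR adjusted p = 0.306).

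Camkk2 (ENSMUSG00000029471, chr5:122731170-122779409) encodes the kinase that phosphorylates and activates CaMKI, CaMKIV and AMPK. It stood at 345, 374, 375 and 356 CPM in retrieval replicates 1 to 4, against 393, 412, 431 and 417 CPM in non-retrieval replicates 1 to 4. The groups did not overlap. The means were 363 ± 14.5 CPM in retrieval and 413 ± 16.1 CPM in non-retrieval (SD, n = 4 each), and the log2 fold change of -0.19 (SE 0.06, 95% interval -0.31 to -0.07) missed the threshold (edgeR adjusted p = 0.0776). It was past the threshold in DESeq2 (adjusted p = 0.0196), where 1.56% of genes were called lower, and in limma-voom (adjusted p = 0.0178). It also passed with the length and GC offset, where the log2 fold change was -0.31 (edgeR adjusted p = 0.000265). With the myelin covariate Camkk2 was at -0.21 (SE 0.09, edgeR adjusted p = 0.281) and did not pass. Nor did it pass without a filter on low counts (edgeR adjusted p = 0.106). Dropping each library in turn gave no call of Camkk2 (by edgeR, adjusted p from 0.0759 to 0.214).

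Camk4 (ENSMUSG00000038128, chr18:32939041-33195767) encodes CaMKIV, which phosphorylates the transcription factor CREB in the nucleus. It stood at 248, 192, 223 and 191 CPM in retrieval replicates 1 to 4, against 239, 210, 222 and 209 CPM in non-retrieval replicates 1 to 4. The retrieval libraries held both the highest and the lowest values of the 8, and the log2 fold change was -0.04 (SE 0.08, 95% interval -0.22 to 0.13; edgeR adjusted p = 0.820). It was 0.00 without retrieval replicate 2 or 4 and without non-retrieval replicate 1 (by edgeR, adjusted p 0.989 to 0.992), and with the myelin covariate 0.19 (edgeR adjusted p = 0.376).

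The calcineurin genes all had log2 fold changes below 0, and none passed. Ppp3ca (ENSMUSG00000028161, chr3:136670124-136937727), which encodes the main catalytic subunit in brain, stood at 1254, 1138, 1209 and 1128 CPM in retrieval replicates 1 to 4, against 1323, 1265, 1332 and 1282 CPM in non-retrieval replicates 1 to 4. All retrieval libraries lay below all non-retrieval libraries, with retrieval replicate 1 nearest to them. The means were 1182 ± 59.7 CPM in retrieval and 1300.4 ± 31.9 CPM in non-retrieval (SD, n = 4 each), with a log2 fold change of -0.14 (SE 0.06, 95% interval -0.26 to -0.02; edgeR adjusted p = 0.205).

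Ppp3cb (ENSMUSG00000021816, chr14:20499364-20546573) encodes the other catalytic subunit of neurons. It stood at 352, 278, 303 and 285 CPM in retrieval replicates 1 to 4, against 346, 321, 351 and 317 CPM in non-retrieval replicates 1 to 4. Retrieval replicate 1 was the highest of all 8 libraries, and the other 3 retrieval libraries lay below every non-retrieval library. Its log2 fold change was -0.13 (SE 0.07, 95% interval -0.29 to 0.02; edgeR adjusted p = 0.358).

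Ppp3r1 (ENSMUSG00000033953, chr11:17159263-17200375) encodes calcineurin B, the calcium-binding subunit without which the catalytic subunit is not active. It stood at 777, 635, 720 and 682 CPM in retrieval replicates 1 to 4, against 805, 759.8, 819 and 792 CPM in non-retrieval replicates 1 to 4. Only retrieval replicate 1 reached into the non-retrieval range. Its log2 fold change was -0.18 (SE 0.07, 95% interval -0.31 to -0.04; edgeR adjusted p = 0.152).

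Without retrieval replicate 1, Ppp3cb was at -0.20 (edgeR adjusted p = 0.0447), Ppp3r1 at -0.22 (edgeR adjusted p = 0.0267) and Ppp3ca at -0.16 (edgeR adjusted p = 0.0787), and over all tested genes 1.93% then fell and 6.08% rose. With any other library left out, neither Ppp3cb (edgeR adjusted p 0.349 to 0.599) nor Ppp3r1 (edgeR adjusted p 0.157 to 0.341) passed. Leaving out a library did not bring Ppp3ca past the threshold in any case. Limma-voom with library weights called all 3 lower (adjusted p 0.0182 to 0.0498), where 3.04% of tested genes were called lower. With the myelin covariate the log2 fold changes were -0.04 for Ppp3ca, 0.03 for Ppp3cb and -0.02 for Ppp3r1 (edgeR adjusted p 0.848 to 0.948). The summed level of the myelin markers was 4124, 5979.6, 4121 and 5430.4 CPM in retrieval replicates 1 to 4, against 3402, 4008, 3626 and 3398 CPM in non-retrieval replicates 1 to 4. The 2 libraries with most of it were the 2 lowest for Ppp3ca, Ppp3cb, Ppp3r1 and Camk4. Retrieval replicates 1 and 3 were nearly equal in it. In these, Ppp3ca was at 1254 and 1209 CPM, Ppp3cb at 352 and 303, Ppp3r1 at 777 and 720, and Camk4 at 248 and 223. Non-retrieval replicate 2 had the most of its group, and was the lowest non-retrieval library for Ppp3ca (1265 CPM) and Ppp3r1 (759.8 CPM). Non-retrieval replicate 4 had the least, and was the lowest non-retrieval library for Ppp3cb (317 CPM) and Camk4 (209 CPM). A link of the markers to these genes was not tested beyond the covariate.

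Rcan2 (ENSMUSG00000039601, chr17:43801351-44039516), whose product binds calcineurin and is known mainly as an inhibitor of it, varied least. It stood at 172, 171, 174 and 172 CPM in retrieval replicates 1 to 4, against 175, 171, 174 and 179 CPM in non-retrieval replicates 1 to 4. The groups overlapped, and the spread within retrieval was 0.668% of the mean and within non-retrieval 1.79%. The log2 fold change was -0.02 (SE 0.05, 95% interval -0.13 to 0.09; edgeR adjusted p = 0.881), so the interval bounds a change in either direction at 0.13 on the log2 scale.

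**Figure D2:**
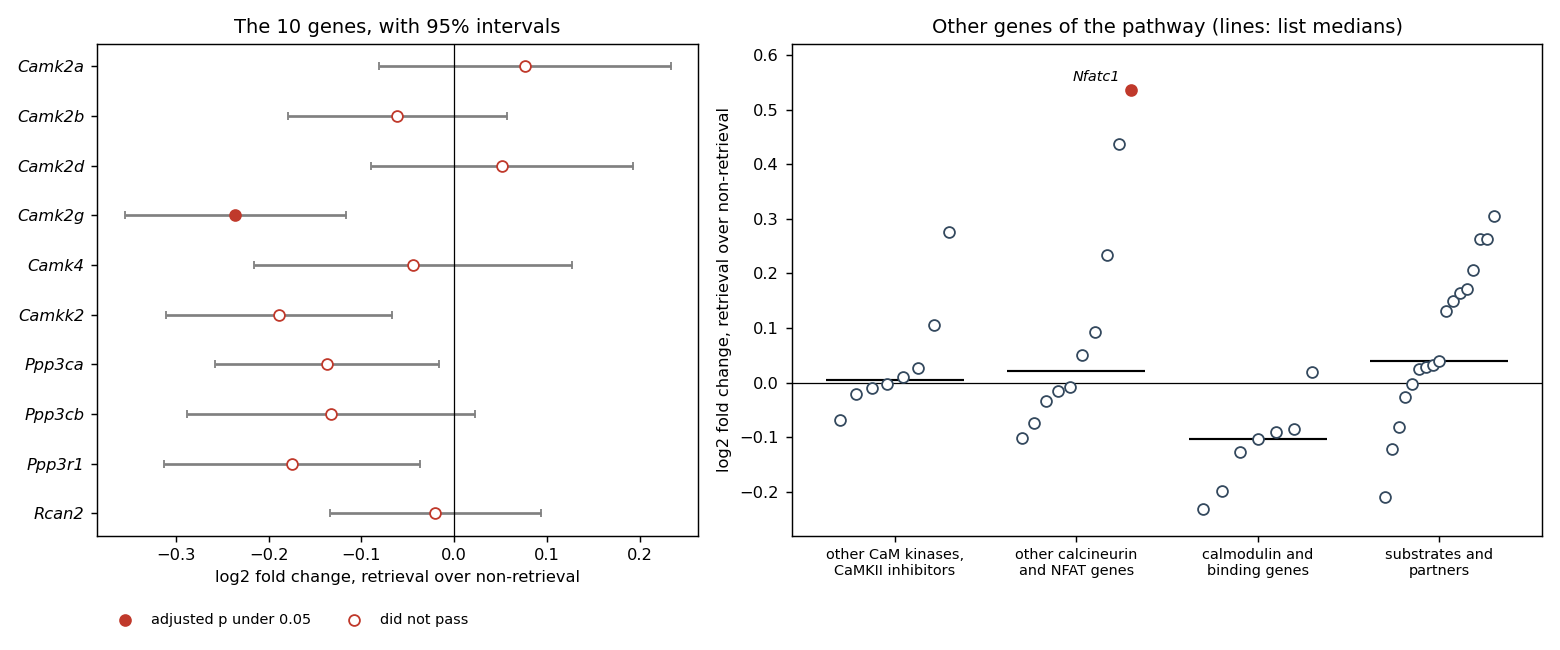
Left, log2 fold change (x axis) of each of the 10 genes with its 95% interval, filled where the adjusted p was under 0.05. Right, log2 fold changes (y axis) of other genes of the pathway in 4 lists, with list medians as lines: Camk2g at -0.24 and Nfatc1 at 0.53 are the filled points.

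Levels of different genes were compared per gene length, as TPM, computed from the counts and the deposited lengths and scaled to a fixed sum per library. Camk2a led, at 1739 ± 170.1 TPM in retrieval and 1641 ± 56.2 TPM in non-retrieval (SD, n = 4 each), and ranked 39th of the 16745 tested genes by its mean over 8 libraries. After it came Ppp3r1 (789 TPM in retrieval and 884 TPM in non-retrieval), Ppp3ca (429 TPM in retrieval and 468 TPM in non-retrieval), Camk2b (295 TPM in retrieval and 306 TPM in non-retrieval) and Camk2g (171 TPM in retrieval and 199.98 TPM in non-retrieval). Each of these exceeded the next in all 8 libraries. The next 3, Rcan2 (143 TPM in retrieval and 144 TPM in non-retrieval), Ppp3cb (125 TPM in retrieval and 136 TPM in non-retrieval) and Camkk2 (120.2 TPM in retrieval and 136 TPM in non-retrieval), were not separated from their neighbours in this order: Rcan2 was above Ppp3cb in 6 of 8 libraries and Ppp3cb above Camkk2 in 3 of 8, while Rcan2 was above Camkk2 in all 8. Camk4 (62.8 TPM in retrieval and 64.2 TPM in non-retrieval) and Camk2d (13.2 TPM in retrieval and 12.6 TPM in non-retrieval) stood below them in every library. The deposited length of Camk2d, 22493 bases, is the longest of the 10, and the TPM assumes that the whole gene model is transcribed. Its TPM depends on that length, though it was the lowest in CPM too. The place of Ppp3r1 above Ppp3ca depends on its length, 3228 bases, the shortest of the 10. In CPM, Ppp3r1 stood below Ppp3ca, at 703 against 1182 in retrieval and 794 against 1300.4 in non-retrieval.

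**Figure D3:**
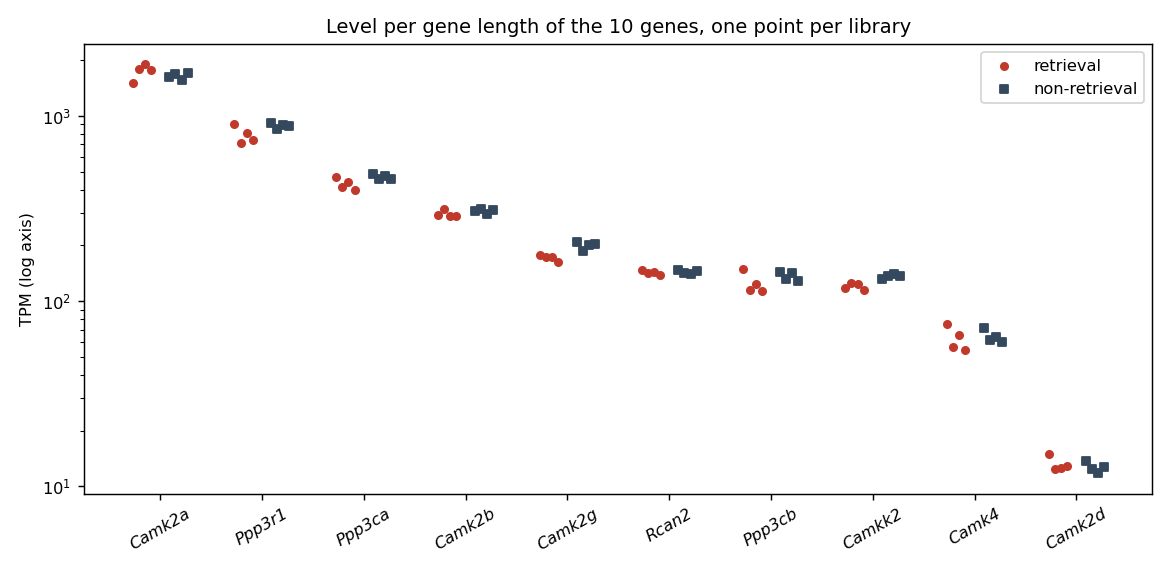
TPM of the 10 genes on a log axis, ordered by mean, with 1 point per library and retrieval left of non-retrieval within each gene. Camk2a and Camk2d stand at the ends (1689.8 and 12.9 TPM over 8 libraries), and the ranges of Rcan2, Ppp3cb and Camkk2 overlap.

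Within the CaMKII family, Camk2a supplied 78.3 ± 1.96% of the summed TPM in retrieval and 76.0 ± 0.493% in non-retrieval (SD, n = 4 each), and Camk2b 13.4 ± 1.11% in retrieval and 14.2 ± 0.211% in non-retrieval. Camk2d supplied 0.601% in retrieval and 0.586% in non-retrieval. The share of Camk2g was 8.95%, 7.52%, 7.27% and 7.28% in retrieval replicates 1 to 4, against 9.62%, 8.54%, 9.70% and 9.21% in non-retrieval replicates 1 to 4. The groups overlapped in this share through retrieval replicate 1, the retrieval library lowest for Camk2a, and non-retrieval replicate 2, the non-retrieval library lowest for Camk2g. The other 3 retrieval libraries held smaller shares of Camk2g and larger shares of Camk2a than any non-retrieval library. The ratio of Camk2a to Camk2g was 8.44, 10.4, 11.01 and 10.9 in retrieval replicates 1 to 4, against 7.86, 8.96, 7.78 and 8.29 in non-retrieval replicates 1 to 4. No test was made on these shares and ratios.

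Between the calcineurin catalytic genes, Ppp3ca supplied 77.5 ± 1.07% of their summed TPM in retrieval and 77.5 ± 0.525% in non-retrieval (SD, n = 4 each). The lowest share, 75.9%, was that of retrieval replicate 1, and the other 3 retrieval libraries lay between 77.7% and 78.3%, against 77.0% to 78.1% in non-retrieval. The ratio of Camk2a to Ppp3ca, a kinase gene against a phosphatase gene, was 3.19, 4.33, 4.33 and 4.47 in retrieval replicates 1 to 4, against 3.35, 3.66, 3.32 and 3.70 in non-retrieval replicates 1 to 4. Retrieval replicate 1 was the lowest of all 8 in this ratio and the other 3 retrieval libraries were the highest.

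**Figure D4:**
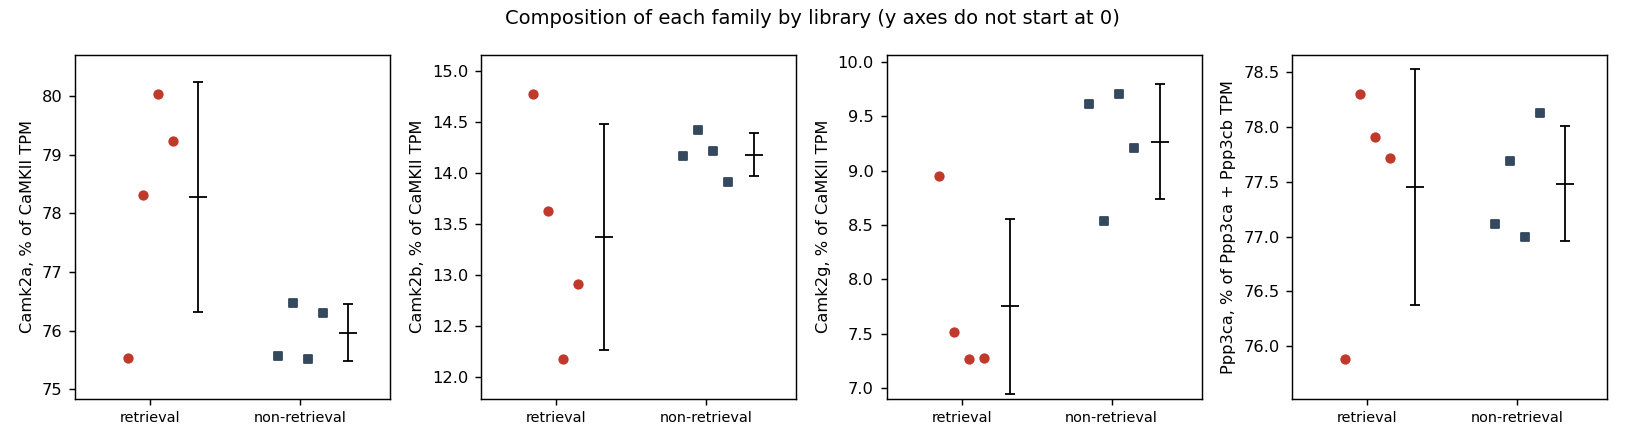
Share of the summed TPM (y axes, in percent, not starting at 0) of Camk2a, Camk2b and Camk2g within CaMKII and of Ppp3ca within the catalytic calcineurin genes, with 1 point per library, retrieval left, and the mean and SD of 4 libraries beside each group. Retrieval replicate 1, the leftmost point, lies among or beyond the non-retrieval libraries in each panel.

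Profiles over the 8 libraries were compared as the root mean square difference between log2 CPM values centred on each gene's mean, a measure of likeness in which 0 is identical. Of the pairs among the 10 genes, Ppp3ca and Ppp3r1 were the most alike (0.046), followed by Ppp3cb and Ppp3r1 (0.049). Camk2b and Rcan2 came next, at 0.052, ahead of the catalytic genes Ppp3ca and Ppp3cb, at 0.060. Of the 11461 other tested genes with a mean of at least 5 CPM, the nearest to Camk2g were Fndc5, which encodes the precursor of irisin (0.034), Pdk1, a kinase of pyruvate dehydrogenase (0.036), and Lrrc49 (0.037). Fndc5 stood at 58.9 ± 1.85 CPM in retrieval and 69.3 ± 3.33 CPM in non-retrieval (SD, n = 4 each; log2 fold change -0.24). These distances describe 8 libraries and were not tested.

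Start-site sequences from RefSeq (build GRCm38.p6, 250 bases before to 50 after a start) were matched for 6 of the 10 genes. The promoters of Ppp3r1 and Ppp3cb are shown because these genes had the second-closest pair of profiles. They were searched on both strands for the CRE half-site TGACG, at which CREB can bind, the GC box GGGCGG, at which SP1 can bind, and GGAAA, the core that NFAT factors recognise. Capitals mark matches, including those on the opposite strand, and adjoining capitals are matches that touch or overlap. The first is chr11:17159048-17159347 on the plus strand and the second chr14:20546524-20546823 on the minus strand.
Ppp3r1: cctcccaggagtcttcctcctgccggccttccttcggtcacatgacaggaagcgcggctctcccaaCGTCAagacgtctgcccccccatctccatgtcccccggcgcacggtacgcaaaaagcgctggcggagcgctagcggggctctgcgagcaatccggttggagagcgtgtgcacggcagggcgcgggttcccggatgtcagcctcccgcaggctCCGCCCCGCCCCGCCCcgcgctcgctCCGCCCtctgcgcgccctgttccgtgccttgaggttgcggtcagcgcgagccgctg
Ppp3cb: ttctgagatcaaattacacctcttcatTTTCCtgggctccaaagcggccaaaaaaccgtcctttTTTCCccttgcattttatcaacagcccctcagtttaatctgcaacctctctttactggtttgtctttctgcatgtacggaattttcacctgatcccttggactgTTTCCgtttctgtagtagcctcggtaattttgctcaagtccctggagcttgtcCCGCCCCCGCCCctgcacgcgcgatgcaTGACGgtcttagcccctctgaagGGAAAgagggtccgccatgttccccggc
Ppp3r1 held 1 CRE half-site, 4 GC boxes and 0 GGAAA cores, and Ppp3cb 1 CRE half-site, 2 GC boxes and 4 GGAAA cores. Among 32851 promoters of the same length, 20.8% held TGACG, 35.7% GGGCGG and 61.3% GGAAA, each at least 1 time. No background was computed for the number of matches in a promoter. The full element TGACGTCA, held by 1.79% of all promoters, was in none of the 8 start-site windows of the 6 genes. The GC content was 70.7% for Ppp3r1 and 51.0% for Ppp3cb, against a median of 52.7% over all promoters.

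Other genes of the pathway were examined in 4 lists of 44 genes, of which 42 were tested. Ppp3r2 and Calml4 had too few counts, with totals of 55 and 37 over 8 libraries. A single gene of the 42 passed, Nfatc1, which rose. Of 8 other CaM kinases and CaMKII inhibitors, 8 did not pass (median log2 fold change 0.00). They include Camk2n1, a peptide inhibitor of CaMKII, with a log2 fold change of -0.01, named here after its values were seen. Camk1g, a membrane-bound CaMKI isozyme, stood at 55.8, 67.7, 56.4 and 61.4 CPM in retrieval replicates 1 to 4, against 46.8, 49.4, 47.1 and 56.0 CPM in non-retrieval replicates 1 to 4. Its groups overlapped through non-retrieval replicate 4 and retrieval replicate 1, and its log2 fold change was 0.28 (SE 0.08; edgeR adjusted p = 0.0567). The others of this list with the smallest p were Camk2n2 (0.11), Camkk1 (-0.07) and Camk1 (0.03).

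Of 10 tested calcineurin subunits, regulators and NFAT factors, 1 rose, none fell and 9 did not pass (median 0.02). Nfatc1, a transcription factor that calcineurin moves into the nucleus, stood at 6.09, 6.64, 7.09 and 6.77 CPM in retrieval replicates 1 to 4, against 3.42, 5.27, 4.46 and 5.21 CPM in non-retrieval replicates 1 to 4. The groups did not overlap, at a level far below those of the 10 genes. Its log2 fold change was 0.53 (SE 0.14; edgeR adjusted p = 0.0351), a call that was kept only without retrieval replicate 1 or non-retrieval replicate 2 when 1 library was left out (otherwise 0.0520 to 0.1002 by edgeR, with log2 fold changes of 0.42 to 0.60 over all 8 cases) and that ended with the myelin covariate, where the log2 fold change was 0.46 with a larger SE of 0.20 (edgeR adjusted p = 0.338). Nfatc2 (log2 fold change 0.23, edgeR adjusted p = 0.266), Nfatc4 (0.44, edgeR adjusted p = 0.403) and Cabin1, a calcineurin inhibitor (0.09, edgeR adjusted p = 0.452), had the next smallest p. Rcan1, the activity-induced relative of Rcan2 and named here after its values were seen, was at 0.05 on that scale (SE 0.07; edgeR adjusted p = 0.737).

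Of 7 tested calmodulin and calmodulin-binding genes, 7 did not pass, and the median log2 fold change was -0.10, with 1 value above 0 and 6 below. Those with an unadjusted p under 0.05 were 3, all lower in retrieval, against 7.27% of tested genes. They were Nrgn, which encodes neurogranin, the postsynaptic store of calmodulin (1316 ± 122 CPM in retrieval and 1510.0 ± 106 CPM in non-retrieval, SD, n = 4 each; log2 fold change -0.20, edgeR adjusted p = 0.143), Pcp4, a modulator of calmodulin (-0.23, edgeR adjusted p = 0.164), and Calm2, which encodes calmodulin (-0.13, edgeR adjusted p = 0.264). Of 17 substrates and partners, 17 did not pass (median 0.04), with an unadjusted p under 0.05 for 5 higher and 1 lower, against 11.2% and 7.27% of tested genes. Those with small p include Crebbp, the CREB coactivator (log2 fold change 0.26, edgeR adjusted p = 0.0631), Lrrc7, the CaMKII partner densin (0.30, edgeR adjusted p = 0.104), and Shank3, a postsynaptic scaffold (0.26, edgeR adjusted p = 0.134).

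**Figure D5:**
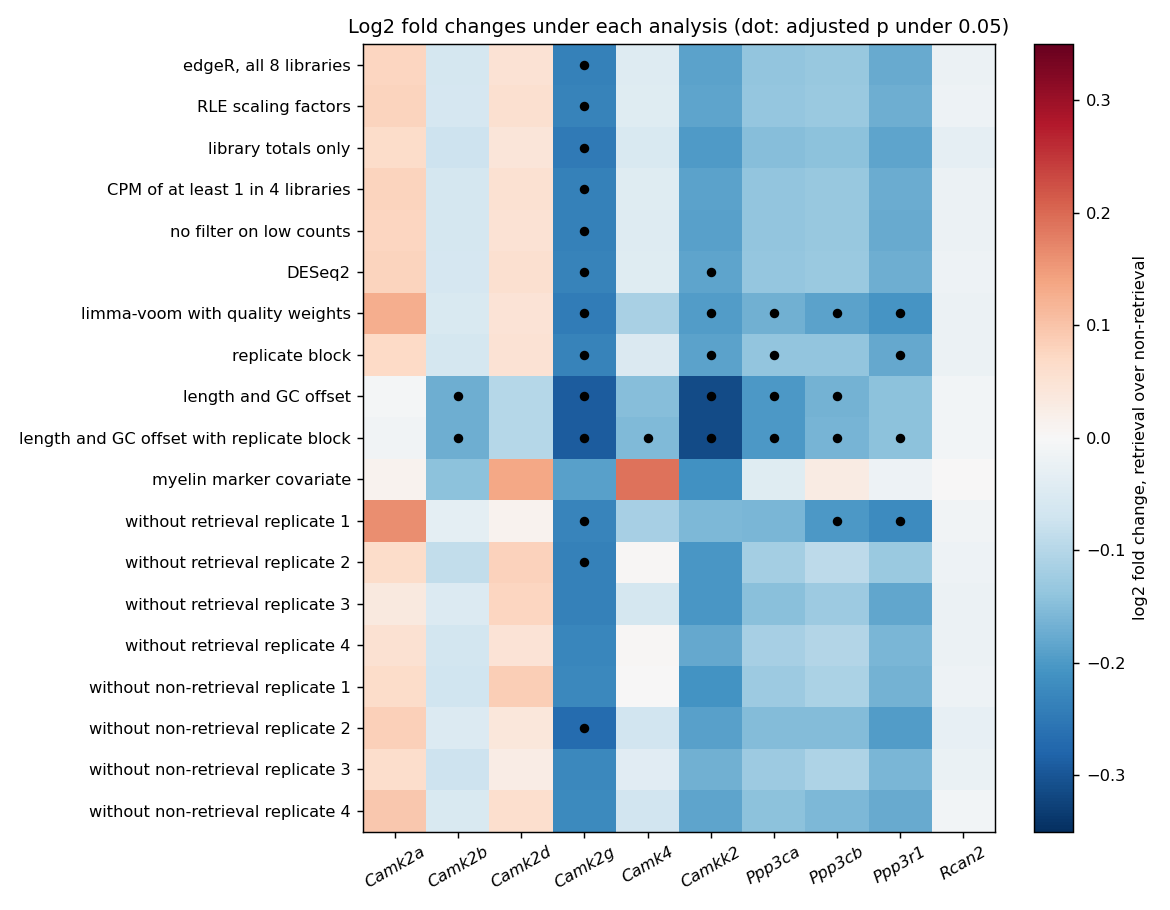
Log2 fold change (colour, retrieval over non-retrieval) of the 10 genes (columns) under each analysis (rows), with a dot where the adjusted p was under 0.05. Camk2g is the column with most dots and lies between -0.29 and -0.19 in every row, the rows with the length and GC offset hold 5 and 7 dots, and the row with the myelin covariate holds 0.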

How the data were processed

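Per the submitters' processing notes, HISAT2 2.0.5, featureCounts 1.5.0-p3 and the build GRCm38 were used; for the annotation release and the strand setting, the sources used here give nothing. The authors deposited raw read counts per gene for 8 libraries, not normalized, with a gene length for each gene. Coordinates of genes are those of the deposited table. Genes were filtered with filterByExpr of edgeR 4.0.16 (R 4.3.3; minimum count 10), scaled with TMM factors and compared with edgeR's quasi-likelihood test (two-sided, Benjamini-Hochberg adjustment over all tested genes), group only. A log2 fold change above 0 means higher in retrieval. CPM use TMM factors, log2 CPM a prior count of 2, and TPM the deposited length. Intervals are at 95%.

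The genes and lists were chosen with earlier results of these data known. Named are the 10 genes, called genes and up to 4 genes of smallest p per list, and the 3 genes most like the called gene of the 10; a few genes that meet it are left out of the text. Equal replicate numbers were not treated as pairs: deviations of same-numbered libraries from their group means correlated at 0.027 to 0.22, above 0.1 in 1 of 4 pairs. Alternatives were other scaling and filters, DESeq2 1.42.0, limma-voom (limma 3.58.1), a replicate block, an offset for length and GC content (loess span 0.5; GC known for 99.9% of tested genes, and all 10), a myelin covariate, a threshold of 0.1, and leaving out each library. The fit was checked on simulated counts. Transcripts of 1 gene were not separated.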

Additional observations from a re-analysis of the deposited data

Results flagged for a closer look

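Over the named genes, 52 groups of 4 libraries were examined, and 2 held a library far from the other 3; chance gives about 1 such group in 20. Camk2g stood at 332 CPM in non-retrieval replicate 2, against 362 to 367 CPM in the other non-retrieval libraries, so that the group without it lay further from retrieval (log2 fold change -0.27). Nfatc4, a low-level NFAT gene, stood at 1.56 CPM in retrieval replicate 2, against 1.15 to 1.21 CPM in the other retrieval libraries.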

How the results depend on the processing

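Of all tested genes, 766 were called (615 higher, 151 lower), and of the 10 genes 1. Limma-voom gave 1619 calls (1110 higher, 509 lower) and 5 of the 10 genes. The length and GC offset gave 1381 (634 lower) and 5 of the 10. The myelin covariate gave 169 (151 higher, 18 lower) and 0 of the 10. A threshold of 0.1 gave 1173 (284 lower) and 2 of the 10, Camk2g and Camkk2, which are also the 2 that DESeq2 called, with 236 genes lower over all; without a filter 241 were lower. With 1 library left out, calls ran from 330 to 1360 (283 to 1032 higher, 45 to 328 lower) and 0 to 3 of the 10, the fewest over all genes without non-retrieval replicate 4 and the most without retrieval replicate 1. With the replicate number as a block, calls were 1791 (1274 higher, 517 lower) and 4 of the 10, all lower (Camk2g, Camkk2, Ppp3ca and Ppp3r1, against 3.09% of genes), and with block and offset 1971 (980 higher, 991 lower) and 7 of the 10; the labels give no pairing, though each of the 8 libraries correlated best with its own number. Camk2g was lower in each of these analyses, from -0.29 to -0.19. The sign turned for Camk2a with the offset (-0.0071, with block -0.011), Camk2d with it (-0.101, with block -0.0985), Camk4 (0.19), Ppp3cb (0.030) and Rcan2 (0.00058) with the myelin covariate, and Camk4 with 1 library left out (-0.12 to 0.0047). None of these turned values passed the threshold, and the cause was not tested. With 4 pools a group, small changes may be missed, and transcripts of 1 gene were not separated.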
